A study of Mus musculus with 10 samples.

Results

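The genes described here encode 36 proteins of the interstitial matrix, the fibrous and gel-like material that fills the space between kidney tubules and capillaries. All 36 were found among the 13920 genes listed, and basement membrane chains were left out. The members were picked by gene symbol, with earlier results of these data known. Comparisons of the members with all genes or with other lists are therefore descriptions. Their 77 listed transcripts belong to a table of 26686. Values came from left kidneys, taken whole, of C57BL/6 mice after unilateral ureteral obstruction (UUO; surgery label "Original UUO") or a sham operation ("Sham UUO"), with 5 libraries of total RNA per group and treatment given as none in both. In UUO the ureter of 1 kidney is blocked, and the kidney above the block swells, loses tubules and scars. The time after surgery, sex and age are not given in the labels, and the labels do not say whether each library is a mouse of its own. All p-values therefore refer to differences among these 10 libraries, which may be technical.

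Interstitial matrix is secreted mainly by fibroblasts, pericytes and the contractile myofibroblasts that arise after injury. Fibrillar collagens form the cables, FACIT-type collagens and small leucine-rich proteoglycans coat them, and fibrillin, fibulins and elastin build the elastic microfibrils. Matricellular proteins such as periostin, tenascin-C and thrombospondins carry little load and instead modulate how cells attach and respond to growth factors. Build-up of this matrix is what fibrosis of the kidney means.

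Values were taken as FPKM, a level normalised for gene length and sequencing depth. The gene values of a library summed to 282172 to 302519 in UUO and 327994 to 343018 in sham, and without read counts the depth of a library is unknown. The groups also differed in detection and composition: 42 to 61 genes were listed at 0 in a UUO library and 276 to 357 in a sham library, and mitochondrial genes held 9.31% to 13.4% of the sum in UUO and 21.2% to 24.5% in sham. FPKM was also multiplied by transcript length, for transcripts that were the sole one listed for their gene. Among the lowest of these products in a library, rounded, the commonest recurred 4 to 7 times in UUO and 21 to 32 times in sham. The part of these differences in the values of weakly expressed members was not tested. Sham 4 stood apart from its group: its log2 values correlated across the 13920 genes at 0.965 to 0.974 with the other sham libraries, which correlated at 0.990 to 0.992 with each other. Results that rest on sham 4 are given with and without it. All 15 proximal tubule markers were listed, and their sum lay at 2541 to 12926 FPKM in UUO and 20154 to 29617 FPKM in sham.

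All 36 interstitial matrix genes rose in UUO. With limma on log2(FPKM + 1), fitted over all 13920 genes and called at a Benjamini-Hochberg adjusted p below 0.05, 36 members were called higher and 0 lower (0 also at an unadjusted p under 0.05), where 58.9% of all genes were called higher and 15.5% lower. In 32 of 36 members every UUO library exceeded every sham library, which held for 47.8% of all genes. The sham mean lay below 1 FPKM for 17 members, and Postn and Mfap5 stayed below 0.5 FPKM in every sham library. Genes this low in sham may be listed only through UUO libraries, and their direction would then be fixed. The median log2 difference, UUO minus sham, was 2.62 for the members and 0.41 for all genes. A log2 difference of at least 3 was found for 13 of 36 members and 1.47% of all genes. Adding 1 FPKM shrinks the log2 difference of weakly expressed members. Folds are therefore ratios of mean FPKM, and they ran from 2.40 for Ecm1 to 91.6 for Col1a1.

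The background rate depended on how libraries were scaled. Of all calls, 79.1% were higher on the values as deposited and 51.9% after median-of-ratios scaling, which moved the median log2 difference of all genes to 0.03. The members' median lay 2.21 above that of all genes as deposited and 2.27 above it after the scaling, and 36 of 36 were still called higher. Under quantile normalization 34 were, without Vcan (log2 difference 0.50, limma adjusted p = 0.0968) and Aspn (0.41, 0.128).

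The summed FPKM of the members made up 0.441%, 0.541%, 0.528%, 0.344% and 0.416% of the library in UUO 1 to 5, against 0.0289%, 0.0288%, 0.0379%, 0.0520% and 0.0353% in sham 1 to 5. The groups did not overlap, and sham 4 was the highest sham library. In whole-organ RNA, more cells that express a gene and more RNA per cell cannot be told apart. UUO 2 held the highest UUO value for 16 members and UUO 3 for 12, and UUO 4 held the lowest for 17. Sham 4 held the highest sham value for 22 members.

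**Figure D1:**
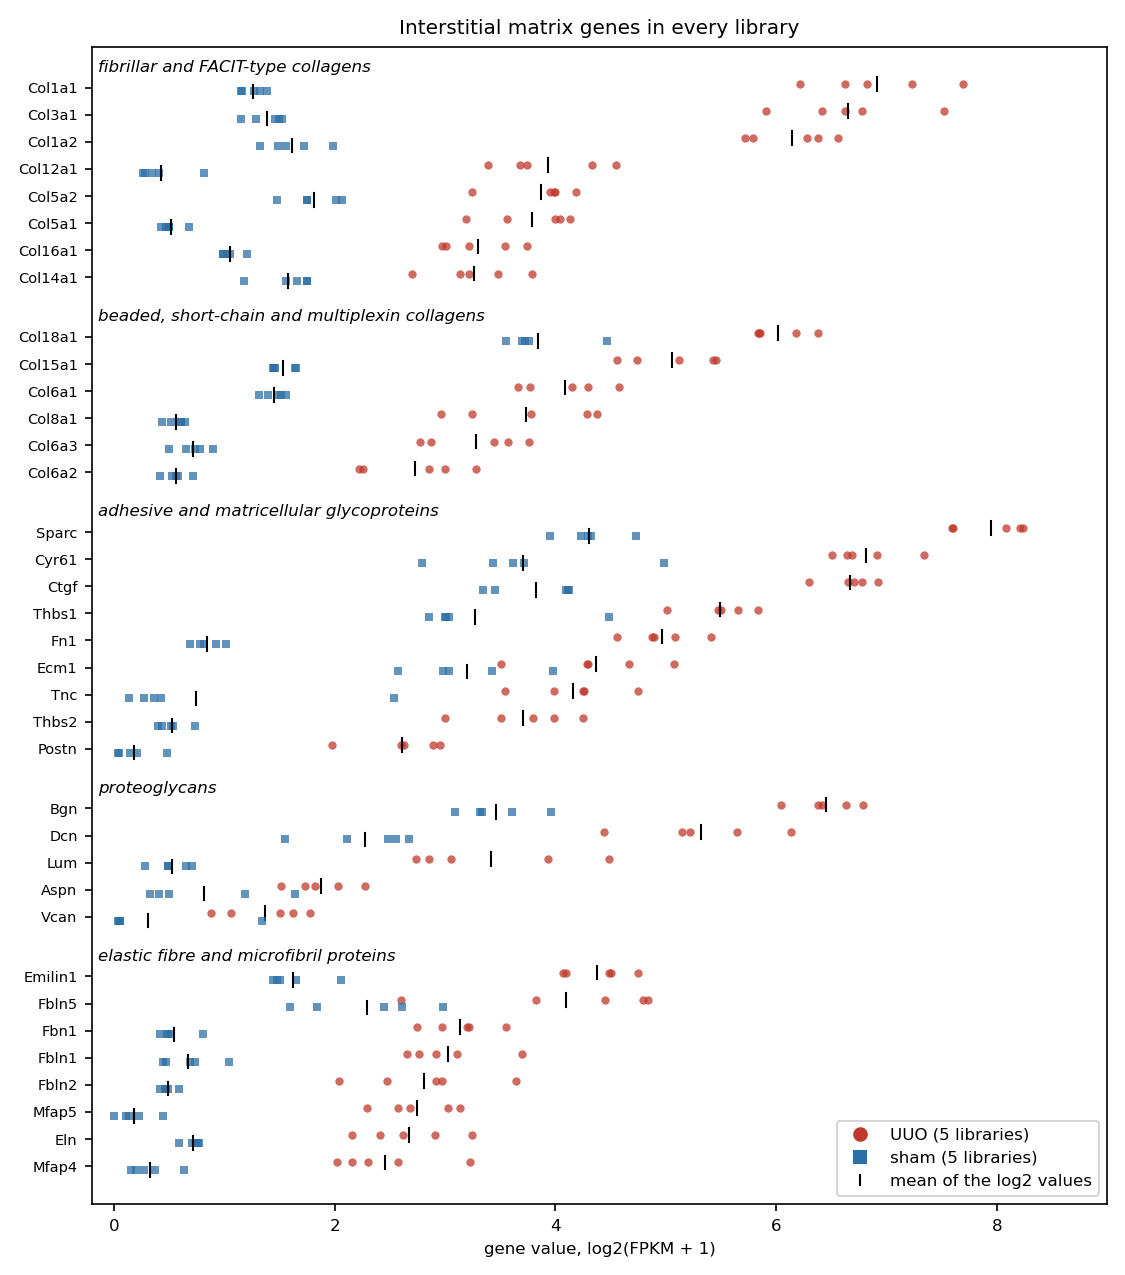
Gene values as log2(FPKM + 1) for the 36 interstitial matrix genes, by role, with circles for the 5 UUO libraries, squares for the 5 sham libraries and a tick at each group's mean. In 32 rows the circles lie wholly to the right of the squares, and Ecm1, Fbln5, Aspn and Vcan overlap.

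Fibrillar and FACIT-type collagens included the largest changes of the 36 members: 8 of 8 rose, with log2 differences of 1.69 to 5.66 and no overlap in any of the 8. Col1a1, the alpha 1 chain of type I collagen (chr11:94936224-94953042 on the plus strand of GRCm38), was at 97.7, 149, 206, 73.5 and 112 FPKM in UUO 1 to 5 and 1.5, 1.23, 1.40, 1.22 and 1.61 FPKM in sham 1 to 5. Every UUO library was far above every sham library, and UUO 3 was the highest. The means of 128 ± 51.7 FPKM in UUO and 1.39 ± 0.169 FPKM in sham (SD, n = 5 each) differed 91.6-fold, with a log2 difference of 5.66 ± 0.23 (SE; limma adjusted p = 3.27e-08), the 6th largest of 13920.

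Col3a1, the single chain of type III collagen (chr1:45311538-45349706, plus strand), read 97.6, 109, 183, 59.1 and 84.5 FPKM in UUO 1 to 5 against 1.87, 1.21, 1.44, 1.82 and 1.75 FPKM in sham 1 to 5. UUO 3 was highest and UUO 4 lowest, as for Col1a1. The rise was 65.8-fold (log2 difference 5.27 ± 0.24 SE; limma adjusted p = 5.01e-08). Col1a2, which supplies the other chain of type I collagen, averaged 71.8 ± 18.3 FPKM in UUO and 2.10 ± 0.558 FPKM in sham, 34.2-fold (log2 difference 4.53).

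Col1a1, Col1a2 and Col3a1 together made up 17.7% to 31.2% of the members' sum in UUO and 3.52% to 5.51% in sham. Col5a1 and Col5a2 encode chains of type V collagen, which nucleates fibrils and limits their width. Col5a1 lay at 8.11 to 16.5 FPKM in UUO and 0.338 to 0.595 FPKM in sham, 30.8-fold, or 34.1-fold without sham 4. Col5a2 lay at 8.47 to 17.2 FPKM in UUO and 1.78 to 3.18 FPKM in sham, 5.52-fold.

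Col12a1, a FACIT-type collagen that binds fibril surfaces, averaged 15 ± 5.45 FPKM in UUO and 0.352 ± 0.231 FPKM in sham, 42.7-fold, or 59.9-fold without sham 4. Its relative Col16a1 rose 8.43-fold. The smallest change of the group was that of Col14a1, another fibril-surface collagen. Col14a1 had 8.28, 12.8, 5.48, 10.2 and 7.76 FPKM in UUO 1 to 5, and 2.15, 1.94, 2.36, 1.26 and 2.35 FPKM in sham 1 to 5. The groups did not overlap, and sham 4 was the lowest sham library for this gene. The rise was 4.42-fold (log2 difference 1.69 ± 0.19 SE; limma adjusted p = 1.65e-05).

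All 6 collagens of the beaded, short-chain and multiplexin types rose without overlap, by 2.16 to 3.53 on the log2 scale. Col18a1, whose C-terminal fragment is endostatin and whose protein lies at the border of basement membranes, had the highest level of them. It was at 56.0, 82.2, 56.7, 56.5 and 71.5 FPKM in UUO 1 to 5 and 12.2, 12.5, 10.7, 21.1 and 12.0 FPKM in sham 1 to 5. Sham 4 was above the rest of its group, and still well below every UUO library. The fold was 4.71 with sham 4 and 5.45 without it (log2 difference 2.18 ± 0.18 SE; limma adjusted p = 1.73e-06).

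Col15a1, the other multiplexin collagen, had the largest log2(FPKM + 1) difference of these 6, while Col8a1 led by fold and with 0.1 FPKM added (log2 differences 4.03 for Col15a1 and 4.43 for Col8a1). Col15a1 read 42.0, 43.0, 22.5, 25.6 and 33.7 FPKM in UUO 1 to 5 and 2.11, 1.73, 1.72, 1.74 and 2.13 FPKM in sham 1 to 5. Spread was small in sham and every UUO library was higher, a 17.7-fold rise (log2 difference 3.53 ± 0.17 SE; limma adjusted p = 6.31e-08). Col8a1, a short-chain network collagen of vessel walls, averaged 13.3 ± 5.82 FPKM in UUO and 0.476 ± 0.0875 FPKM in sham, 27.8-fold.

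Type VI collagen forms beaded filaments around cells from alpha 1, alpha 2 and alpha 3 chains. Col6a1 rose 9.48-fold, Col6a2 12.3-fold and Col6a3 14.2-fold. Col6a2 had the smallest log2(FPKM + 1) difference of the 6 collagens, and Col18a1 the smallest fold. Col6a2 was at 3.78, 6.98, 8.72, 3.67 and 6.23 FPKM in UUO 1 to 5 and 0.439, 0.330, 0.478, 0.645 and 0.491 FPKM in sham 1 to 5. The groups were well apart (log2 difference 2.16 ± 0.19 SE; limma adjusted p = 3.39e-06).

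Adhesive and matricellular glycoproteins rose in 9 of 9 cases, by 1.17 to 4.12 on the log2 scale, and 8 of the 9 did not overlap. Fn1 encodes fibronectin, the adhesive protein on which cells assemble collagen (chr1:71585520-71653200, minus strand). It had the largest change with all libraries: 28.7, 41.6, 28.4, 22.5 and 33.0 FPKM in UUO 1 to 5 and 0.717, 0.901, 0.605, 1.01 and 0.755 FPKM in sham 1 to 5. The groups lay far apart, with means 38.6-fold different (log2 difference 4.12 ± 0.14 SE; limma adjusted p = 2.24e-08). Without sham 4 the fold of Fn1 was 41.4, below those of Tnc (75.3) and Postn (68.0).

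Fibronectin has an alternative coding exon, extra domain B, that is common in embryonic and healing tissue and rare in adult tissue. A listed Fn1 transcript contains that exon (the B-containing form), another has no coding exon that overlaps it (the B-lacking form), and their coding lengths differ by 273 bases. The exon is shown because it is what sets these transcripts apart, read from the GRCm38 genome at chr1:71613763-71614035 on the minus strand.
Fibronectin B exon: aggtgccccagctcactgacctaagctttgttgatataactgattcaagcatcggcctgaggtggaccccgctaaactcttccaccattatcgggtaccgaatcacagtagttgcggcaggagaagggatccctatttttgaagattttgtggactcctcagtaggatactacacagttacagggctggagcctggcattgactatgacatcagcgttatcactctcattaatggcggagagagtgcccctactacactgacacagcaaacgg

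The B-containing form was estimated at 1.31, 12.1, 5.52, 0.0118 and 9.21 FPKM in UUO 1 to 5, and at no more than 0.000629 FPKM in any sham library. It was high in UUO 2, 3 and 5, low in UUO 1 and near 0 in UUO 4. The transcript was called higher (log2 difference 2.20 ± 0.63 SE; limma adjusted p = 0.0202). The B-lacking form was at 0.952, 0.349, 0.451, 1.47 and 0.282 FPKM in UUO 1 to 5 and 0.851, 1.10, 0.679, 0.461 and 0.914 FPKM in sham 1 to 5, with overlapping groups and no call (limma adjusted p = 0.679). The 4 listed Fn1 transcripts summed to 0.255 times the gene value in UUO and 1.26 times in sham, so these estimates cover a small part of Fn1 in UUO.

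Sparc, a collagen-binding matricellular protein (osteonectin), had the highest level of all 36 members in every UUO library. Its values were 271, 301, 296, 192 and 193 FPKM in UUO 1 to 5 and 19, 14.5, 18.7, 25.5 and 17.8 FPKM in sham 1 to 5. UUO 1 to 3 were higher than UUO 4 and 5, and all 5 lay above sham, 13.1-fold on average (log2 difference 3.64 ± 0.17 SE; limma adjusted p = 6.02e-08). The smallest change was in Ecm1, a secreted glycoprotein that binds other matrix proteins. Ecm1 read 24.4, 18.7, 32.6, 10.4 and 18.5 FPKM in UUO 1 to 5 and 4.95, 9.75, 6.87, 14.8 and 7.21 FPKM in sham 1 to 5. Sham 4 exceeded UUO 4, so the groups overlapped (2.40-fold; log2 difference 1.17 ± 0.31 SE; limma adjusted p = 0.00535). Without sham 4 the fold was 2.91 and the highest sham value was 9.75 FPKM, below every UUO library.

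Ctgf and Cyr61, secreted CCN proteins and well-known targets of the YAP coactivator, rose 7.5-fold and 8.19-fold. Ctgf lay at 77.8 to 120 FPKM in UUO and 9.13 to 16.4 FPKM in sham. Cyr61 was at 89.9, 99.0, 120, 102 and 161 FPKM in UUO 1 to 5 and 5.91, 11.2, 30.7, 12.1 and 9.78 FPKM in sham 1 to 5. Sham 3 stood above the rest of its group, and in that library Cyr61 was the most abundant member.

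Promoters of Cyr61, Postn, Ecm1 and Col3a1 are shown as examples of the 7 members with a TATA box match: in Cyr61, Postn and Ecm1 it lay close to the start, and in Col3a1 farther away. Sequences are from RefSeq on GRCm38.p6, 250 bases up to the base before the annotated start, 5′ to 3′ on the gene's strand. Capitals mark a TATA box (letters TATAAA), a TEAD site (letters GGAATG, here on the opposite strand) or an AP-1 site (letters TGANTCA, alike on both strands). Both strands were searched, and no marked matches overlap.
Cyr61, chr3:145649986-145650235 (minus): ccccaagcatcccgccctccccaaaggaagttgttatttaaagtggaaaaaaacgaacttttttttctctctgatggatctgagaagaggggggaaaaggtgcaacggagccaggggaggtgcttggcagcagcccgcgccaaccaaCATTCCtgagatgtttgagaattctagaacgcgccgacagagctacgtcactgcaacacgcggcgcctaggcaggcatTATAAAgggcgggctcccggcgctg
Postn, chr3:54360857-54361106 (plus): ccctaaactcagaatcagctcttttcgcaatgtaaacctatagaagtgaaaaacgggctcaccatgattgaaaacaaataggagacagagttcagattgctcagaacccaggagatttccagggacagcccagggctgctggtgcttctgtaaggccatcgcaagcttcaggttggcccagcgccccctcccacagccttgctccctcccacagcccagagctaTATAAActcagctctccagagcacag
Ecm1, chr3:95739570-95739819 (minus): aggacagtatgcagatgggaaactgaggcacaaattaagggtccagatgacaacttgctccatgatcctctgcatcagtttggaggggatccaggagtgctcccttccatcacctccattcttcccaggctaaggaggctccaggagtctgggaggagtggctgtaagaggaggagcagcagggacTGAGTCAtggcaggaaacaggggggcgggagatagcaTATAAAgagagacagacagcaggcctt
Col3a1, chr1:45311288-45311537 (plus): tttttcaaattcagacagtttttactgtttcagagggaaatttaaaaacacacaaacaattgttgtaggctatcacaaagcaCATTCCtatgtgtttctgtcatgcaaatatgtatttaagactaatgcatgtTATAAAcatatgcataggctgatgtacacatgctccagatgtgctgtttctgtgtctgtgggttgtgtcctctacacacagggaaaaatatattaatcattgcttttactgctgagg

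The TATA match began 25 bases before the start in Cyr61, 26 in Postn and 27 in Ecm1, and 117 bases before it in Col3a1. Tnc, Thbs2 and Aspn also had matches, all farther from the start than that of Col3a1. RefSeq windows were matched for 24 of 36 members, 30 windows in all, since some members have several starts and some windows overlap. TATAAA was in 26.7% of member windows and 12.4% of all 32851 promoters. The TEAD letters were in 13.3% and 12.6%, the AP-1 letters in 6.67% and 6.75%, and CCAAT in 23.3% and 33.8%. These are matches of letters and not measured binding.

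Periostin and tenascin-C are matricellular proteins of healing tissue. Postn was at 2.93, 6.42, 5.18, 5.07 and 6.73 FPKM in UUO 1 to 5 and 0.103, 0.0272, 0.0242, 0.396 and 0.155 FPKM in sham 1 to 5, a 37.3-fold rise or 68.0-fold without sham 4. It is one of the 2 members, with Mfap5, that stayed below 0.5 FPKM in every sham library. Tnc read 25.9, 18, 14.9, 10.6 and 18.2 FPKM in UUO 1 to 5 and 0.281, 0.0964, 0.208, 4.80 and 0.346 FPKM in sham 1 to 5. The sham mean of Tnc rested on sham 4: the fold was 15.3 with that library and 75.3 without it, and no sham library reached a UUO one.

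The thrombospondins, which bind latent TGF-beta (Thbs1) and matrix proteases (Thbs2), differed from each other. Thbs1 averaged 44.9 ± 9.13 FPKM in UUO and 9.74 ± 6.49 FPKM in sham, 4.61-fold or 6.56-fold without sham 4, which was at 21.3 FPKM. Thbs2 averaged 12.6 ± 4.22 FPKM in UUO and 0.440 ± 0.133 FPKM in sham, 28.7-fold.

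The 5 proteoglycans were all called higher, 3 of them without overlap, with log2 differences of 1.06 to 3.04. Bgn, the small proteoglycan biglycan (chrX:73483602-73495933, plus strand), had the highest level. It was at 98.1, 109, 82.3, 84.2 and 65.1 FPKM in UUO 1 to 5 and 8.95, 7.53, 9.09, 14.5 and 11.2 FPKM in sham 1 to 5. The groups were clearly apart, 8.57-fold (log2 difference 2.99 ± 0.17 SE; limma adjusted p = 2.04e-07).

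Dcn, decorin, which coats collagen fibrils and binds TGF-beta, had the largest log2(FPKM + 1) difference of the proteoglycans. With all libraries Lum led by fold and with 0.1 FPKM added (log2 differences 3.32 for Dcn and 4.21 for Lum). Without sham 4 the fold was larger for Vcan, at 55.2, than for Lum, at 26.5. The values of Dcn were 36.3, 49.0, 69.1, 34.4 and 20.7 FPKM in UUO 1 to 5 and 3.33, 1.92, 4.6, 5.38 and 4.88 FPKM in sham 1 to 5. UUO 3 was highest, as for Col1a1 and Col3a1, and all UUO libraries exceeded sham (10.4-fold; log2 difference 3.04 ± 0.31 SE; limma adjusted p = 7.33e-06). Lum, the related lumican, neighbours Dcn on chromosome 10 (chr10:97565128-97572703 and chr10:97479609-97518143, both plus strand). Lum lay at 5.64 to 21.4 FPKM in UUO and 0.216 to 0.634 FPKM in sham, 24.7-fold.

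Aspn and Vcan were the lowest proteoglycans and overlapped between groups. Aspn, asporin, read 3.09, 2.54, 3.83, 2.31 and 1.86 FPKM in UUO 1 to 5 and 0.324, 0.255, 0.414, 2.12 and 1.27 FPKM in sham 1 to 5. Sham 4 exceeded UUO 5 (3.11-fold; log2 difference 1.06 ± 0.26 SE; limma adjusted p = 0.00308), and without sham 4 the fold was 4.82. Vcan, the large hyaluronan-binding proteoglycan versican, was at 2.08, 1.84, 2.42, 0.833 and 1.08 FPKM in UUO 1 to 5 and 0.0248, 0.0277, 0.0336, 1.53 and 0.0336 FPKM in sham 1 to 5. The other 4 sham libraries were near 0 and sham 4 lay inside the UUO range. Vcan was 5.0-fold higher with sham 4 and 55.2-fold without it (log2 difference 1.07 ± 0.28 SE with all libraries; limma adjusted p = 0.00471).

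All 8 elastic fibre and microfibril genes rose, by 1.81 to 2.76 on the log2(FPKM + 1) scale, and 7 did not overlap. With 0.1 FPKM added the log2 differences ran from 2.03 for Fbln5 to 4.76 for Mfap5. Emilin1, which sits between elastin and microfibrils, had the highest UUO mean and the largest log2(FPKM + 1) difference, while Mfap5, Mfap4, Fbn1, Fbln2 and Fbln1 rose by larger folds. In sham the mean of Fbln5 was higher, at 4.20 FPKM against 2.12 FPKM for Emilin1. Emilin1 read 21.5, 25.9, 21.6, 15.8 and 16.1 FPKM in UUO 1 to 5 and 1.71, 1.84, 1.78, 3.15 and 2.13 FPKM in sham 1 to 5. The groups were apart in every library (9.50-fold; log2 difference 2.76 ± 0.16 SE; limma adjusted p = 1.88e-07).

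Fbn1, fibrillin-1 of the microfibril core, averaged 7.95 ± 1.89 FPKM in UUO and 0.460 ± 0.162 FPKM in sham, 17.3-fold, or 20.4-fold without sham 4. Eln, elastin itself, averaged 5.58 ± 1.97 FPKM in UUO and 0.640 ± 0.0816 FPKM in sham, 8.72-fold. The microfibril-associated Mfap4 rose 18.3-fold. Mfap5 was at 3.89 to 7.79 FPKM in UUO, and was listed at 0 in sham 2 and at 0.0786 to 0.359 FPKM in the other sham libraries. Fbln1 rose 12.2-fold and Fbln2 16.3-fold, both fibulins that bridge matrix networks.

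Fbln5, the fibulin that tethers elastin to cells, had the smallest change of the elastic fibre genes. It was at 27.6, 20.8, 13.1, 26.8 and 5.05 FPKM in UUO 1 to 5 and 2.57, 5.10, 2.02, 4.45 and 6.88 FPKM in sham 1 to 5. UUO 5 lay within the sham range and the other UUO libraries above it (4.44-fold; log2 difference 1.81 ± 0.43 SE; limma adjusted p = 0.00274).

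At the transcript level, 51 of 77 member transcripts rose and 0 fell by limma, where 28.2% of all 26686 transcripts were called higher and 9.83% lower. A transcript's share of its gene's listed sum was compared for 24 transcripts of 11 members. None was called at an adjusted p below 0.05 and a difference of at least 10 percentage points (0 of 24, against 0.714% of all 14003 shares tested), and 4 had an unadjusted p under 0.05. These were both abundant transcripts of Sparc and both of Dcn.

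Sparc-201 held 90.7%, 86.0%, 91.0%, 79.2% and 4.97% of the Sparc sum in UUO 1 to 5, against 2.03%, 4.24%, 3.48%, 3.44% and 5.22% in sham 1 to 5. UUO 1 to 4 carried mainly Sparc-201, and UUO 5 was like sham and carried mainly Sparc-202 (91.3%). The mean difference was 66.7 percentage points and was not called (limma adjusted p = 0.0839). Without UUO 5 it was 83.1 points and called (limma adjusted p = 5.64e-05). UUO 5 was singled out from these same values, so that call is no support for a changed share. With each library left out in turn, the limma adjusted p ran from 5.64e-05 to 0.159. Sparc-202 fell by 81.0 points without UUO 5 (limma adjusted p = 0.000277), and its limma adjusted p reached 0.211 with another library left out. These transcripts start 182 bases apart on chr11 (minus strand, GENCODE M21), and their coding lengths differ by 3 bases, so they differ mostly outside the coding sequence.

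Dcn-201 held 98.9%, 98.4%, 98.7%, 99.1% and 97.8% in UUO 1 to 5 against 95.7%, 90.5%, 68.8%, 73.9% and 52.0% in sham 1 to 5. Every UUO library was above every sham library, where the share varied widely, and the difference of 22.4 percentage points was not called (limma adjusted p = 0.107). Dcn-201 and Dcn-202 have the same coding length and start 2758 bases apart.

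Tnc was not in the share test because its transcripts summed to less than 1 FPKM in 4 of 5 sham libraries. Its UUO libraries fell into different patterns: Tnc-203 held 99.8% in UUO 1 and 99.1% in UUO 4, and Tnc-204 held 91.4%, 96.8% and 92.8% in UUO 2, 3 and 5. Tnc-203 held 88.8% to 100% in sham. The starts lie 26290 bases apart, and Tnc-203 has a coding exon at chr4:63984460-63984732 (GRCm38, minus strand) that Tnc-204 lacks. That exon is of the same length as the fibronectin one and is shown because it is the coding difference between the transcripts.
Tnc-203 exon: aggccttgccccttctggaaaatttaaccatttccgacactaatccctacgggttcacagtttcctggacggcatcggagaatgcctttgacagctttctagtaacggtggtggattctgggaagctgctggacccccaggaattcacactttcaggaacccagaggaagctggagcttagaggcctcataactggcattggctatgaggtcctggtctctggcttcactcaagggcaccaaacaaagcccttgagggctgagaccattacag

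Neither transcript was called for Tnc (limma adjusted p = 0.247 for Tnc-203 and 0.0654 for Tnc-204), whereas the gene was called in every setting tried. Shares also switched between libraries of the same group in other members. A listed Fbn1 transcript held 100%, 14.5%, 100%, 99.9% and 1.02% of its gene's sum in UUO 1 to 5. A Fbln5 transcript held 8.45%, 28.0%, 8.47%, 100% and 100%. Others were steady, such as the main Col1a2 transcript at 97.7% to 100% in UUO. Transcript values are estimates from short reads, and their error within a library was not given. Whether the switches, including those of Sparc and Tnc, reflect transcript use or estimation was not tested.

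**Figure D2:**
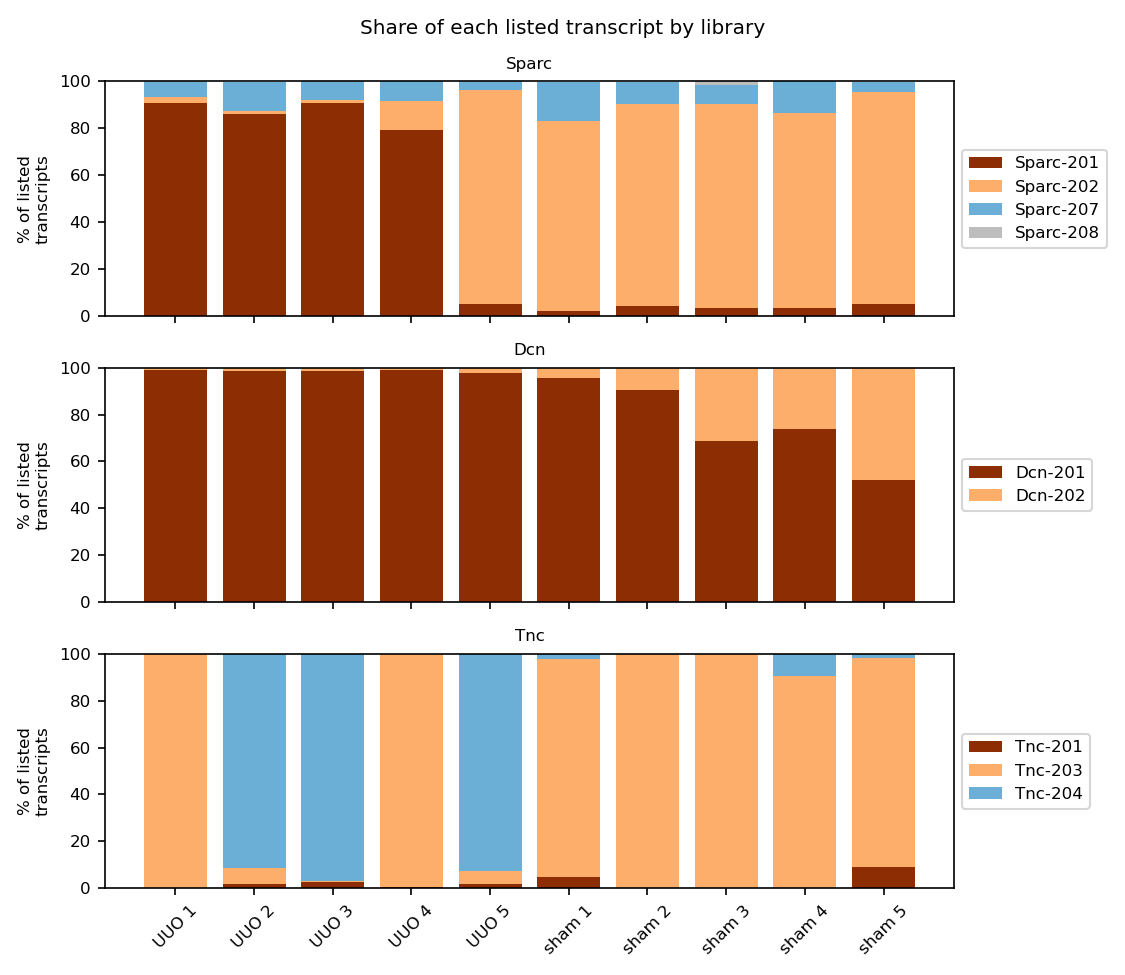
Share of each listed transcript in the summed FPKM of its gene, in %, for Sparc, Dcn and Tnc in UUO 1 to 5 (left bars) and sham 1 to 5 (right bars). Sparc-201 fills most of the bar in UUO 1 to 4 and 4.97% of it in UUO 5, and Tnc-204 fills most of it in UUO 2, 3 and 5.

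Ratios of members that share a fibre or family were formed within each library, which removes any scaling common to the library. Of 17 ratios 16 were tested, each by an exact two-sided permutation test over all relabellings (smallest possible p = 0.00794), with Benjamini-Hochberg adjustment over the 16, and 8 were called: 5 higher and 3 lower. Absolute ratios depend on the lengths used for each gene, so the change and not the level is compared.

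The chains of type I and type V collagen did not rise alike. Col1a1/Col1a2 was 1.27, 1.81, 2.20, 1.43 and 2.07 in UUO 1 to 5 and 0.771, 0.824, 0.782, 0.414 and 0.705 in sham 1 to 5. The groups did not overlap (log2 difference of the ratio 1.34; exact permutation p = 0.00794, adjusted 0.0212). Col5a1/Col5a2 was 0.724 to 1.11 in UUO and 0.107 to 0.254 in sham, a log2 difference of 2.47 with the same exact p. Taken against Col1a1, Col5a1 was lower in UUO, at 0.0799 to 0.133, than in sham, at 0.241 to 0.487 (log2 difference -1.51; exact adjusted p = 0.0212).

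Col3a1/Col1a1 was lower in UUO, 0.835 ± 0.110, than in sham, 1.17 ± 0.206 (SD, n = 5 each; log2 difference -0.48; exact permutation adjusted p = 0.0317), and the groups overlapped. That call was lost without UUO 2, UUO 4 or UUO 5 (exact adjusted p = 0.0544 in each case). Col18a1/Col15a1 fell to 1.33 to 2.52 in UUO against 5.60 to 12.2 in sham (log2 difference -1.84; exact adjusted p = 0.0212).

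Among glycoproteins, Thbs2/Thbs1 was 0.142 to 0.411 in UUO and 0.0210 to 0.0942 in sham (log2 difference 2.46; exact adjusted p = 0.0212). Postn/Sparc was 0.0108 to 0.0348 in UUO and 0.00130 to 0.0155 in sham, overlapping (log2 difference 2.20; exact permutation adjusted p = 0.0317). That call was lost without UUO 2, 3, 4 or 5 (exact adjusted p 0.0564 to 0.0794) and with 0.1 FPKM added to both genes (log2 difference 0.92; exact adjusted p = 0.0988). With 1 FPKM added Postn/Sparc was called in the opposite direction (-1.21; exact adjusted p = 0.0181), so its direction depended on the value added. Lum/Dcn was 0.181 to 0.310 in UUO and 0.0870 to 0.130 in sham (log2 difference 1.16; exact adjusted p = 0.0212). With 1 FPKM added Lum/Dcn turned to -0.15 (exact adjusted p = 0.557) and Thbs2/Thbs1 lost its call (0.96; exact adjusted p = 0.0635). Sham Lum lay at 0.216 to 0.634 FPKM.

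The other 8 ratios did not pass: Col6a2/Col6a1, Col6a3/Col6a1, Tnc/Fn1, Cyr61/Ctgf, Dcn/Bgn, Vcan/Bgn, Eln/Fbn1 and Fbln2/Fbln1, with exact adjusted p of 0.0564 to 0.81. Without sham 4, Tnc/Fn1 (log2 difference 0.97), Vcan/Bgn (2.44) and Eln/Fbn1 (-1.35) were called, at exact adjusted p of 0.0254, 0.0159 and 0.0254. With all libraries the exact adjusted p was 0.81, 0.317 and 0.0564. Sham 4 lay outside the range of the other sham libraries in these same ratios, so those calls are no support for a change. Without UUO 3, in which the ratio was 0.256 against 0.542 to 0.781 in the other UUO libraries, Col6a3/Col6a1 was called (log2 difference 0.87; exact adjusted p = 0.0181). With all libraries its exact adjusted p was 0.150. UUO 3 was singled out from these same values, so that call is no support for a changed ratio.

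**Figure D3:**
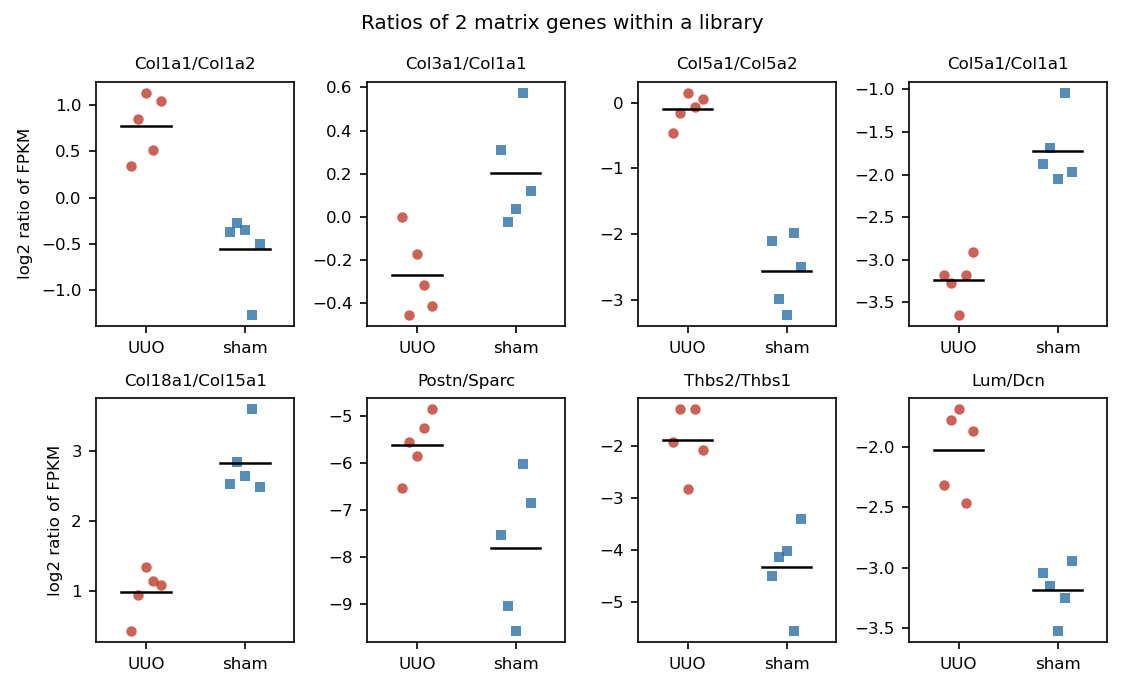
The 8 called ratios as log2 of FPKM over FPKM, 1 point per library, with UUO at the left and sham at the right of each panel and a line at the mean of the log2 ratios. UUO lies above sham for 5 ratios and below it for Col3a1/Col1a1, Col5a1/Col1a1 and Col18a1/Col15a1, and only Col3a1/Col1a1 and Postn/Sparc overlap among the 8.

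Genes around the interstitial matrix were read from lists, described by counts of limma calls beside the 58.9% of all genes called higher as deposited and 35.3% after median-of-ratios scaling. Of 70 other interstitial matrix genes on the list, 38 were among the genes listed in these data. Of these 38, 31 rose and 1 fell, with a median log2 difference of 1.2. A gene near 0 in sham, such as Col10a1 (0 FPKM) or Fbn2 (0.00448 FPKM), may be listed only through UUO libraries. Its direction would then be fixed, so 31 of 38 may overstate the rise of the whole list. Smoc2, a secreted calcium-binding matricellular protein, had the largest log2(FPKM + 1) difference, 3.80, at 37.0 ± 6.46 FPKM in UUO and 1.77 ± 0.757 FPKM in sham, 20.9-fold. Genes with lower levels had larger folds, such as Col17a1, named after its values were seen, at 2.19 FPKM in UUO and 0.00502 FPKM in sham. Npnt, the integrin ligand nephronectin, had the highest mean over all 10 libraries among called genes and rose 2.41-fold. Col23a1, a transmembrane collagen, fell (log2 difference -0.32; limma adjusted p = 0.0310, and 0.0673 without sham 4).

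Of 21 basement membrane chains, 15 rose and 2 fell (median 1.17). Nid1, the linker nidogen-1, rose 8.14-fold and Col4a1 5.65-fold, and Col4a3, a chain of the mature glomerular basement membrane, fell to 13.7 ± 2.65 FPKM in UUO against 22.9 ± 1.85 FPKM in sham.

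Of 31 genes of collagen folding, processing and crosslinking, 28 were listed, and 23 of these rose and 3 fell (median 0.94). Lox, lysyl oxidase, which starts the crosslinking of collagen and elastin, averaged 19.5 ± 8.80 FPKM in UUO and 0.343 ± 0.267 FPKM in sham, 56.8-fold. P4hb, the protein disulfide isomerase that is also a subunit of prolyl 4-hydroxylase, fell to 181 ± 18.8 FPKM in UUO against 225 ± 15.7 FPKM in sham (log2 difference -0.32; limma adjusted p = 0.00854). Colgalt2, a collagen galactosyltransferase, fell with a log2 difference of -0.81.

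Of 22 matrix proteases and inhibitors, 19 were listed, and 17 of these rose and 1 fell (median 2.35). Timp1, a metalloproteinase inhibitor, averaged 102 ± 99.9 FPKM in UUO and 0.0656 ± 0.104 FPKM in sham (log2 difference 6.19; limma adjusted p = 7.99e-07). Timp3, an inhibitor that binds to the matrix, fell to 122 ± 22.6 FPKM in UUO against 254 ± 31.7 FPKM in sham. Plau, urokinase, was 1.52-fold higher, a call lost after median-of-ratios scaling (limma adjusted p = 0.617).

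Of 24 matrix receptors, 23 were listed, and 20 of these rose and 2 fell (median 1.09). Cd44, the hyaluronan receptor, averaged 20.5 ± 6.74 FPKM in UUO and 0.186 ± 0.0890 FPKM in sham, 110-fold. Sdc2, a syndecan, fell (log2 difference -0.39), and Sdc4 was 1.26-fold higher as deposited with a log2 difference of -0.19 after median-of-ratios scaling (limma adjusted p = 0.0937).

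TGF-beta ligands, receptors and signalling genes rose in 16 of 18 cases and fell in 0 (median 1.15). Inhba, the activin A subunit, was at 8.17 ± 3.54 FPKM in UUO and 0.0542 ± 0.0351 FPKM in sham, 151-fold, and Tgfbr2 rose 2.28-fold. Like Timp1 and Cd44, Inhba was near 0 in sham, so its fold rests on small sham values. These genes too may be listed only through UUO libraries. Of 19 YAP target genes, 18 were listed, and 17 of these rose and 0 fell (median 1.2). Ankrd1 rose 22.9-fold, and Igfbp3 1.89-fold. After median-of-ratios scaling 12 YAP target genes were called higher and 1 lower, where 35.3% of all genes were called higher. Other interstitial matrix genes then had 28 higher and 3 lower, basement membrane chains 14 and 3, and the collagen folding list 19 and 4. Matrix proteases and inhibitors had 16 higher and 1 lower, matrix receptors 18 and 2, and the TGF-beta list 13 and 0.

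**Figure D4:**
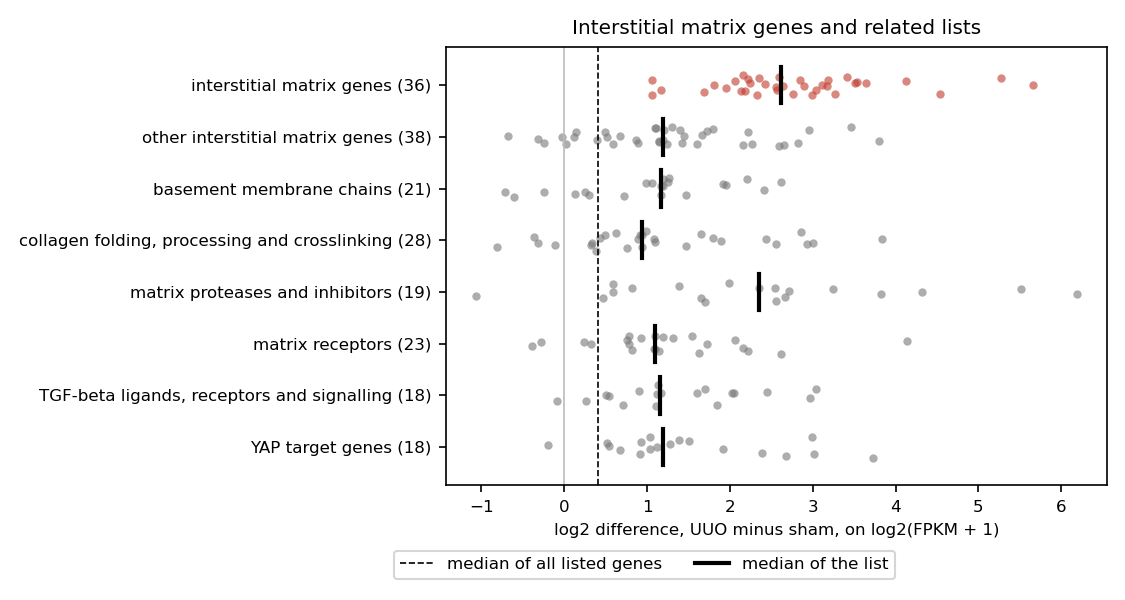
Log2 differences, UUO minus sham, of the 36 interstitial matrix genes (top row) and of the genes in 7 related lists, with the number of genes in parentheses, a bar at each list's median and a dashed line at the median of all genes. The members' median of 2.62 lies right of the medians of the 7 lists, which run from 0.94 to 2.35, and the dashed line stands at 0.41.

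Markers of the cells that make or surround this matrix moved in the same comparison, in which 58.9% of all genes were called higher and 15.5% lower. All 13 fibroblast, pericyte and myofibroblast markers rose, with sums of 273 to 438 FPKM in UUO and 33.1 to 55.7 FPKM in sham. Thy1 rose 58.7-fold and Tagln, a contractile protein, 12.4-fold. Macrophage and monocyte markers rose in 12 of 12 cases, with sums of 747 to 1388 FPKM in UUO and 34.5 to 52.7 FPKM in sham. All 15 proximal tubule markers fell.

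Urothelial markers summed to 53.4 to 325 FPKM in UUO and 1.57 to 46.9 FPKM in sham, where sham 4 was highest and the others reached at most 13.0 FPKM. Endothelial markers summed to 155 to 227 FPKM in UUO and 75.5 to 198 FPKM in sham, with sham 4 again highest and the others at most 94.7 FPKM. Of 11 endothelial markers 7 rose (63.6%) and 0 fell, and that share was near the 58.9% of all genes called higher. Without sham 4, 10 rose, where 61.0% of all genes were called higher. Podocyte markers rose in 7 of 7 cases, and in 3 after median-of-ratios scaling. After that scaling 35.3% of all genes were called higher. Of the endothelial markers 4 were then called higher and 2 lower, Kdr (log2 difference -0.55; limma adjusted p = 0.000187) and Ehd3 (-0.27; 0.0112). The part of these cell types in the matrix values, including those of sham 4, was not tested.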

How the data were processed

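Stranded libraries of total RNA from whole left kidneys were sequenced on a NovaSeq, per the labels' protocols. The submitters' processing notes name cutadapt, HISAT2, StringTie and GRCm38, without versions. The authors deposited gene and transcript values whose header states no unit, and these were taken as FPKM from their decimals and sums. Sample titles gave the groups.

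No filter was applied. Differences of log2(FPKM + 1) were fitted in limma 3.58.1 (R 4.3.3; trend, Benjamini-Hochberg over each whole table). Shares, arcsine square-root transformed, were tested where a gene's transcripts summed to 1 FPKM or more in each library and the transcript averaged 5% or more in either group. Ratios, motif searches and figures used Python 3.11.15 with numpy 2.4.6, pandas 2.3.3 and matplotlib 3.10.9. Statistical scripts were tested on simulated data. Coordinates came from GENCODE M21, to which 94.9% of transcript IDs matched. The members and lists were chosen with earlier results of these data known. Values per library are given for the highest UUO mean, largest change and smallest change of each role group and for further members described in depth. Lists contributed the called gene of largest change in each direction and of highest mean. Alternatives changed the pseudocount, filter, scaling, trend, replicate block and each library in turn.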

Additional observations from a re-analysis of the deposited data

Results flagged for a closer look

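Among 104 checks of a group of 5 libraries for a value far from the rest, 14 were positive, and 11 of the 14 lay in sham 4. Chance alone marks about 1 in 20 groups where values are normally distributed. The checks are not independent, since the ratios reuse member values, so the count is a description. Thbs1 was at 21.3 FPKM in sham 4, Tnc at 4.80, Col18a1 at 21.1, Vcan at 1.53, Fbn1 at 0.743, Col12a1 at 0.756 and Col5a1 at 0.595 FPKM, each above the other sham libraries. Cyr61 was at 30.7 FPKM in sham 3, above the other sham libraries.

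Ratios marked in sham 4 were Col5a1/Col1a1 at 0.487, Col18a1/Col15a1 at 12.2, Tnc/Fn1 at 4.73 and Vcan/Bgn at 0.106, each above the other sham libraries. Tnc/Fn1 was at 0.904 in UUO 1 and Dcn/Bgn at 0.839 in UUO 3, each above the other UUO libraries.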

How the results depend on the processing

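Of 719 alternative values for single members, 717 kept direction and call, and 2 lost the call (Vcan and Aspn under quantile normalization). The count of members called higher was 36 in every setting but that one (34) and the filter on a mean of 1 FPKM, which left out Vcan (35 of 35). The members' median log2 difference of 2.62 was 3.51 with 0.1 FPKM added, 3.74 with 0.01, 2.30 after median-of-ratios scaling, 2.13 after quantile normalization, and 2.54 to 2.72 with 1 library left out. Over all genes, 8198 were called higher and 2160 lower as deposited, against 4916 and 4565 after median-of-ratios scaling and 4012 and 4955 after quantile normalization. With 1 library left out, 46 to 53 member transcripts were called higher and 0 to 2 shares changed, the 2 without UUO 5; 6 to 11 ratios were called.

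Of 224 alternative ratio values, 190 kept direction and call, 17 lost and 5 gained a call, and 12 reversed: with 0.1 FPKM added Tnc/Fn1 (-0.15) and Vcan/Bgn (-0.18); with 1 FPKM added Col6a2/Col6a1 (-0.47), Col6a3/Col6a1 (-0.0638), Tnc/Fn1 (-0.71), Postn/Sparc (-1.21), Lum/Dcn (-0.15), Vcan/Bgn (-1.93) and Fbln2/Fbln1 (-0.0293), of which Col6a2/Col6a1, Postn/Sparc and Vcan/Bgn were called in the new direction (exact permutation adjusted p = 0.0181 each); Tnc/Fn1 without UUO 1 (-0.02) or sham 2 (-0.40); and Fbln2/Fbln1 from summed transcripts (-0.0860), an alternative chosen after seeing the data; the cause was not tested. With 1 library left out Tnc/Fn1 ran from -0.40 to 0.97.

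Same-numbered libraries did not pair: deviations from the group means correlated at 0.02, -0.15, -0.10, -0.23 and 0.13, and 0 of 5 pairs correlated best with their own number. With the replicate number as a block, 36 members and 45 of their transcripts were called higher, against 36 and 51 without it, and over all genes 7770 were called higher and 1978 lower. No ratio was called (0 of 16), since the smallest p of a sign-flip test over 5 pairs is 0.0625, and 8 were called without the block. Depth is unknown, so the precision of low sham values is known only from the spread between libraries.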
